A study of Mus musculus with 12 samples.

Results

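The genes described here are 10 mouse chemokines, 6 of the CC class (Ccl2, Ccl3, Ccl4, Ccl5, Ccl7 and Ccl9) and 4 of the CXC class (Cxcl1, Cxcl5, Cxcl10 and Cxcl12), out of 19938 genes measured. Where a gene had several probe sets, the brightest on average was to stand for it, but each of the 10 had a single probe set carrying its symbol alone, so brightness decided nothing. The 10 names were picked from the chemokine family when results of these arrays were already known, without a record of which values were used. The number of them that differ in any comparison is therefore a description and is not evidence about the family.

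RNA from D3, a line of mouse embryonic stem (ES) cells grown here as 1 clone, was hybridised to Affymetrix arrays, 3 arrays in each of 4 groups. The ATRA group held embryoid bodies (EBs, cell aggregates formed in suspension without LIF, the cytokine that holds ES cells undifferentiated) given all-trans retinoic acid at 5 micromolar for 12 h, and the DMSO group held EBs given the solvent for 12 h. The EB group held untreated 4-day EBs, and the ES group undifferentiated cells at day 0. All groups come from the same single clone, and the labels name no altered allele and no feeder cells. They also leave unsettled whether the 12 h fell within the 4 days or came after them. Levels below are the deposited log2 values with their mean ± SD over 3 arrays, and differences are log2 differences ± SE of the limma fit to all 12 arrays, called at an adjusted p of 0.05 over all 19938 genes.

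Chemokines are small secreted proteins that bind G protein-coupled receptors and direct the movement of cells, above all of leukocytes. The 2 main classes take their names from the spacing of their first cysteines, adjacent in CC chemokines and separated by another residue in CXC chemokines. Many are switched on by NF-kB or by interferon signalling during inflammation, while Cxcl12 is made steadily by stromal cells and guides stem and germ cells through the receptor Cxcr4. Fibroblasts, including those used as feeder layers, are known producers of several inflammatory chemokines.

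Markers of pluripotent cells were read first. All 14 pluripotency markers, among them Pou5f1 and Nanog, lay above the range of olfactory and vomeronasal receptor genes in every group. Those 1194 receptor genes, which are not expected in these cells, served as a guide to low signal, since the table has no detection calls: 95% of them had a group mean of at most 7.04 with ATRA, 7.02 with DMSO, 7.06 in day 4 EBs and 7.09 in ES cells (log2 levels). The 14 pluripotency markers passed this guide in EBs as in ES cells, so passing it does not tell the groups apart. Their summed linear signal was 90725 to 92786 in ES cells and 97615 to 101990 in day 4 EBs. It was 93095 to 94118 with ATRA and 100229 to 101269 with DMSO. In day 4 EBs against ES cells, 5 of the 14 were called higher and 1 lower (all genes, 17.8% higher and 16.9% lower). With ATRA against DMSO, 6 of the 14 were called lower and 0 higher (all genes, 7.05% lower and 6.26% higher). The arrays had medians between 7.76 and 7.86. The arrays EB 2 and ES 2 stood somewhat apart, with the narrowest spreads (interquartile range 3.50 each, against 3.55 to 3.65 in the other arrays) and the highest medians of the receptor genes (5.52 and 5.50, against 5.30 to 5.49), so low values in them run slightly high.

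Ccl2 and Ccl7 (also MCP-1 and MCP-3) attract monocytes through the receptor Ccr2. Ccl2 had log2 levels of 8.43, 8.55 and 8.62 with ATRA, 9.02, 9.19 and 9.05 with DMSO, 9.09, 9.13 and 9.15 in day 4 EBs, and 11.21, 11.30 and 11.27 in ES cells. ES cells were thus far above every EB array, and the ATRA arrays lay below all DMSO and untreated EB arrays. Ccl7 had levels of 8.02, 8.03 and 7.96 with ATRA, 8.47, 8.52 and 8.40 with DMSO, 8.47, 8.38 and 8.41 in day 4 EBs, and 9.04, 8.99 and 9.13 in ES cells. Here too the ATRA arrays were lowest and the ES arrays highest, in smaller steps, and for both genes the DMSO and untreated EB values overlapped.

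Ccl3 and Ccl4 (MIP-1 alpha and beta) attract macrophages and lymphocytes, Ccl5 (RANTES) attracts T cells and monocytes, and Ccl9 is a mouse chemokine that acts through Ccr1. Ccl3 had levels of 7.16, 7.27 and 7.21 with ATRA, 7.10, 7.18 and 6.95 with DMSO, 7.17, 7.13 and 7.23 in day 4 EBs, and 10.54, 10.53 and 10.38 in ES cells. All EB groups lay close to the upper end of the receptor-gene range, and the ES arrays more than 3 log2 units above it. Ccl4, its neighbour on the chromosome, stayed within that range in every group, with 6.86, 6.76 and 6.92 with ATRA, 6.79, 6.94 and 6.90 with DMSO, 6.76, 6.82 and 6.87 in day 4 EBs, and 6.81, 7.28 and 6.92 in ES cells. Its one high value was that of ES 2.

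Ccl5 had levels of 7.68, 7.69 and 7.70 with ATRA, 7.78, 7.80 and 7.73 with DMSO, 7.57, 8.06 and 7.74 in day 4 EBs, and 9.67, 9.48 and 9.34 in ES cells. The EB arrays were all below the ES arrays, and EB 2 was the highest among them. Ccl9 had 7.58, 7.45 and 7.54 with ATRA, 7.69, 7.71 and 7.62 with DMSO, 7.93, 7.64 and 7.87 in day 4 EBs, and 9.40, 9.24 and 9.43 in ES cells. For Ccl5 and Ccl9 alike, the ATRA values lay just under the DMSO values without overlap, by a margin that did not pass the test.

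Cxcl1 (KC) and Cxcl5 (LIX) recruit neutrophils through Cxcr2. Cxcl1 had levels of 7.74, 7.80 and 7.70 with ATRA, 7.57, 7.71 and 7.52 with DMSO, 7.40, 7.84 and 7.53 in day 4 EBs, and 8.22, 8.45 and 8.53 in ES cells. The 9 EB arrays overlapped one another, EB 2 being the highest of them, and lay below the ES arrays. Cxcl5 stayed within the receptor-gene range throughout, at 6.20, 6.24 and 6.07 with ATRA, 6.28, 6.21 and 6.03 with DMSO, 6.01, 6.42 and 6.35 in day 4 EBs, and 6.16, 6.24 and 6.30 in ES cells.

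Cxcl10 (IP-10) is an interferon-induced ligand of Cxcr3, the receptor of activated T cells. It had levels of 6.93, 6.77 and 6.57 with ATRA, 6.79, 6.43 and 6.55 with DMSO, 6.57, 6.87 and 6.70 in day 4 EBs, and 8.66, 8.25 and 8.43 in ES cells. Its values in all 3 EB groups fell inside the receptor-gene range, and those of ES cells above it. Cxcl12 (SDF-1) had 7.43, 7.47 and 7.51 with ATRA, 7.59, 7.56 and 7.64 with DMSO, 7.60, 7.67 and 7.77 in day 4 EBs, and 7.74, 7.81 and 7.81 in ES cells. Its groups stood within 0.32 of one another, the ATRA arrays lowest and without overlap with any other group.

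**Figure D1:**
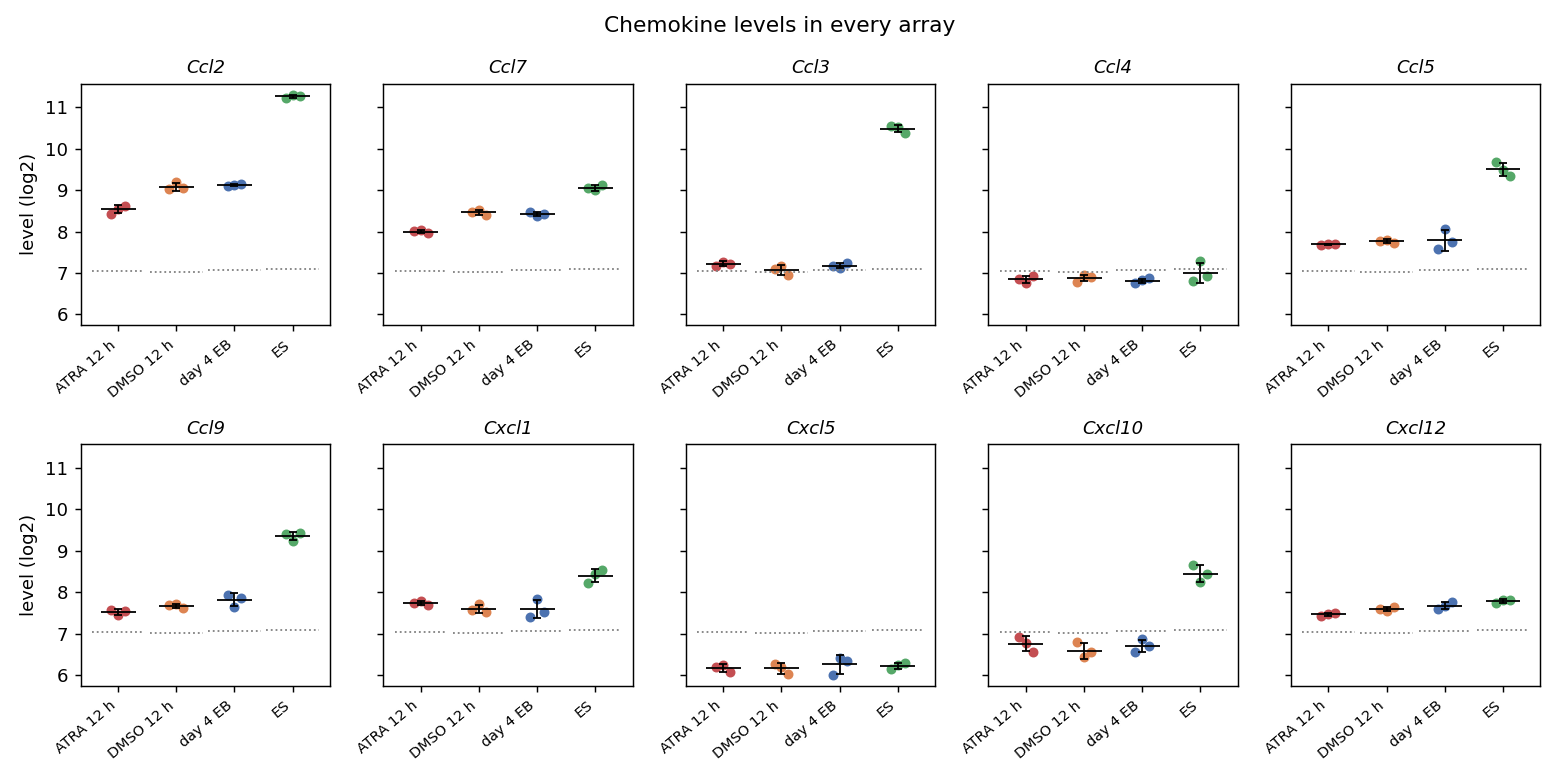
Log2 level (y axis, shared by all panels) of each of the 10 chemokines in the ATRA, DMSO, day 4 EB and ES groups (x axis). Points are arrays (3 per group), black lines and bars the mean ± SD, and dotted lines the level below which 95% of 1194 olfactory and vomeronasal receptor genes lie; the ES arrays of Ccl3 sit between 10.38 and 10.54 and all its EB arrays between 6.95 and 7.27.

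ATRA-treated EBs against DMSO-treated EBs set the 12 h response to retinoic acid apart from that to the solvent. Ccl2 and Ccl7 were lower with ATRA. Ccl2 averaged 8.54 ± 0.10 with ATRA and 9.08 ± 0.10 with DMSO (SD, n = 3 each), a difference of -0.55 ± 0.06 or 1.46-fold lower (limma, adjusted p = 6.08e-05). Ccl7 averaged 8.0 ± 0.04 with ATRA and 8.46 ± 0.06 with DMSO, a difference of -0.46 ± 0.05 or 1.38-fold lower (limma, adjusted p = 6.55e-05). These were 2 of the 10 chemokines, against 7.05% of all genes called lower in this comparison, and 0 were called higher, against 6.26%. With a limit of 1.5-fold beside the adjusted p, 0 of the 10 would be called.

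The other 8 chemokines did not pass. Cxcl12 came nearest, at -0.13 ± 0.05 (limma, adjusted p = 0.136), and Ccl9 stood at -0.15 ± 0.08 (adjusted p = 0.262). Cxcl10, Cxcl1 and Ccl3 had positive differences of 0.17 ± 0.13, 0.15 ± 0.11 and 0.14 ± 0.07 (limma, adjusted p = 0.445, 0.424 and 0.211). Ccl5 (-0.08 ± 0.11), Ccl4 (-0.03 ± 0.10) and Cxcl5 (-0.01 ± 0.10) had differences smaller than their SE. The ATRA and DMSO values did not overlap, with ATRA lower, for 5 of the 10 (Ccl2, Ccl5, Ccl7, Ccl9 and Cxcl12), where 20.0% of all genes showed this. Among all 36 chemokines analysed, including the 10, 7 showed this and 3 the reverse (all genes, 3907 of 19938 the reverse). Of those 36, 3 were called lower and 1 higher, where 7.05% of all genes were lower and 6.26% higher. The median difference of the 10 was -0.05, and that of all genes tested was 0.01.

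DMSO-treated against untreated day 4 EBs measured the solvent and any added time. None of the 10 chemokines was called by limma, and 0 of them had an unadjusted p under 0.05; of all genes 0.747% were called. The differences ran from -0.14 ± 0.08 for Ccl9 to 0.06 ± 0.10 for Ccl4. The low Ccl2 and Ccl7 levels under ATRA were thus not matched in the DMSO group, where Ccl2 differed from untreated EBs by -0.04 ± 0.06 and Ccl7 by 0.04 ± 0.05.

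Day 4 EBs against ES cells covered 4 days of aggregation and culture without LIF together. Ccl3 was 9.87-fold lower (7.18 ± 0.05 in day 4 EBs and 10.48 ± 0.09 in ES cells, difference -3.30 ± 0.07), and Ccl2 4.41-fold lower (9.12 ± 0.03 in day 4 EBs and 11.26 ± 0.04 in ES cells, difference -2.14 ± 0.06). Cxcl10 (-1.73 ± 0.13), Ccl5 (-1.71 ± 0.11) and Ccl9 (-1.54 ± 0.08) followed at 3.33-fold, 3.26-fold and 2.90-fold lower. Cxcl1 (-0.81 ± 0.11) and Ccl7 (-0.63 ± 0.05) differed least among the called genes, at 1.75-fold and 1.55-fold. All 7 were lower without overlap of the 3 and 3 values, and 16.9% of all genes were called lower in this comparison, while 20.1% lay lower without overlap. The largest of the 7 adjusted p-values of limma was 6.37e-05, that of Cxcl1.

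Ccl4 (-0.19 ± 0.10, limma adjusted p = 0.173), Cxcl12 (-0.11 ± 0.05, adjusted p = 0.125) and Cxcl5 (0.03 ± 0.10, adjusted p = 0.887) did not pass. Single arrays decided the first pair: limma called Ccl4 lower when ES 1 was left out (-0.29, adjusted p = 0.0331) and Cxcl12 lower when EB 3 was left out (-0.15, adjusted p = 0.0442). For Ccl3 and Cxcl10, whose day 4 EB levels lie at or inside the receptor-gene range, low signal limits how far down a difference can be read. In bulk RNA, fewer cells that make a chemokine and less of its RNA per cell cannot be told apart.

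ATRA-treated EBs against ES cells, which shares its arrays with the comparisons above, gave 8 of 10 chemokines lower, where 19.1% of all genes were. Ccl2 reached -2.73 ± 0.06 (6.62-fold lower) and Ccl7 -1.05 ± 0.05 (2.07-fold lower) in ATRA-treated EBs. Ccl3 (-3.27 ± 0.07), Ccl9 (-1.83 ± 0.08), Ccl5 (-1.81 ± 0.11), Cxcl10 (-1.69 ± 0.13) and Cxcl1 (-0.65 ± 0.11) were called lower too. Cxcl12 joined the called genes at -0.32 ± 0.05, or 1.25-fold lower (7.47 ± 0.04 with ATRA and 7.79 ± 0.04 in ES cells, limma adjusted p = 0.000319), a call that a 1.5-fold limit would end. Ccl4 (-0.16 ± 0.10) and Cxcl5 (-0.07 ± 0.10) did not pass.

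**Figure D2:**
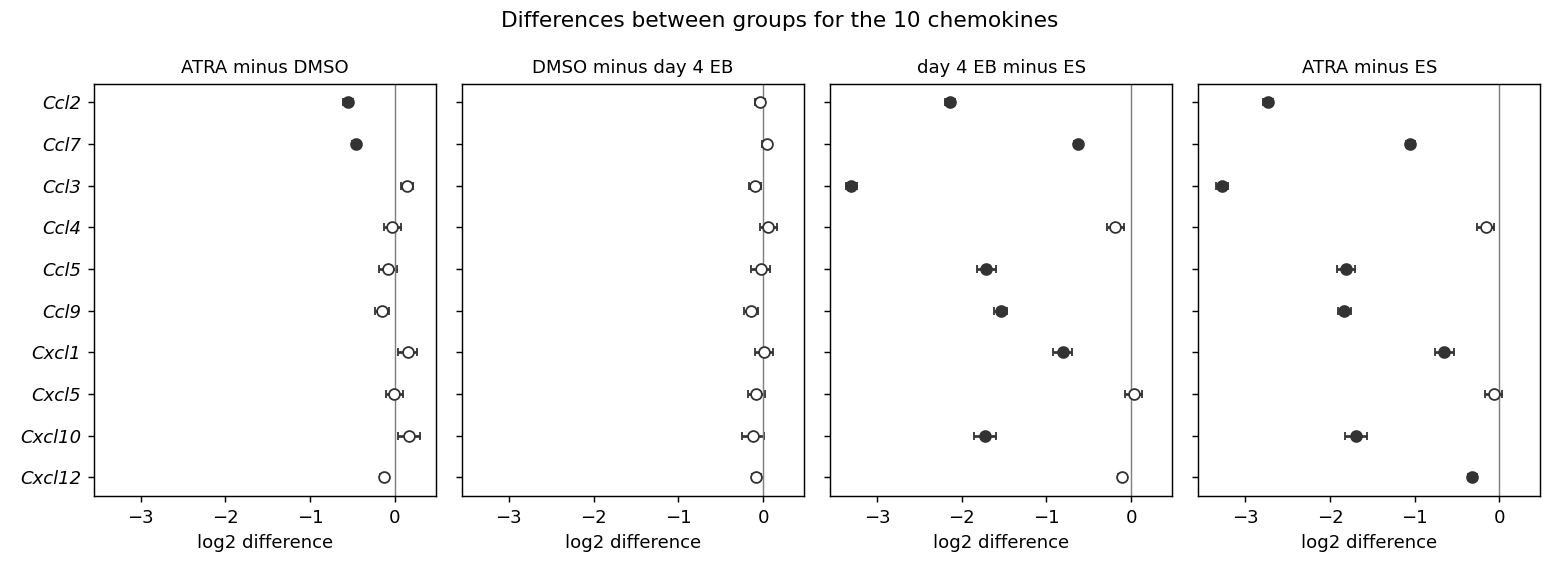
Log2 difference (x axis) of each chemokine in 4 comparisons, one per panel, with the SE of the limma fit as bars (n = 3 arrays per group). Filled points were called at an adjusted p of 0.05: Ccl2 and Ccl7 with ATRA against DMSO, none for DMSO against untreated EBs, 7 genes for day 4 EBs against ES cells and 8 for ATRA against ES cells.

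Most of the 10 genes lie in clusters of tandem relatives, so gene order in RefSeq (assembly GRCm38.p6) was set beside the differences. On chromosome 11, Ccl2 and Ccl7 are adjacent and are followed by Ccl11, Ccl12, Ccl8 and Ccl1. With ATRA against DMSO the other 4 had differences of -0.06, 0.08, 0.18 and 0.07, and none of them was called. Of these 4, Ccl8 was called lower in day 4 EBs than in ES cells (-0.32 ± 0.09, limma adjusted p = 0.0136), with both means, 5.75 in day 4 EBs and 6.07 in ES cells, inside the receptor-gene range. The 3 coding genes on either side of the cluster had differences between -0.10 and 0.17 in day 4 EBs against ES cells, of which that of Asic2 (0.17) was called higher.

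Further along chromosome 11 the order is Ccl5, Ccl9, Ccl6, Ccl3 and Ccl4. The day 4 EB minus ES differences in that order were -1.71, -1.54, -0.11, -3.30 and -0.19, so Ccl6 and Ccl4, which were not called, lie next to called relatives. Of the 3 coding genes on either side, Mmp28 was called lower (-0.42), and the other 5 stood between -0.18 and 0.11 and were not called. Whether the probe sets of Ccl3 and Ccl4 share signal was not tested.

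On chromosome 5, Cxcl5 and Cxcl1 belong to a row that also holds Ppbp, Pf4, Cxcl3, Cxcl15 and Cxcl2. Ppbp, the platelet basic protein gene next to Cxcl5, was lower in day 4 EBs (5.88, 6.01 and 6.17) than in ES cells (9.39, 9.06 and 9.09), a difference of -3.16 ± 0.11. Its day 4 EB values lay inside the receptor-gene range, so low signal limits that difference. Cxcl5 itself and Pf4 differed by 0.03 each and Cxcl3 by 0.00. Of the 3 coding genes on either side of this row, Mthfd2l (-0.41) and Ereg, an epidermal growth factor family gene (-1.67), were called lower, and the other 4 stood between 0.03 and 0.11 and were not called. Cxcl10 lies between Cxcl9 and Cxcl11 on the same chromosome, and its difference of -1.73 stood beside -0.11 for Cxcl9, which was not called, and -0.35 for Cxcl11, which was, though its means of 6.67 in day 4 EBs and 7.03 in ES cells lay inside the receptor-gene range. Art3, which lies between Cxcl9 and Cxcl10, was not called (-0.06). Among the 3 coding genes on either side of this group, Naaa (-0.12) and Nup54 (-0.14) were called lower and Scarb2 (0.35) higher. The others stood between -0.16 and 0.03 and were not called. Some tandem relatives are alike in sequence, and cross-hybridisation between their probe sets was not tested.

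**Figure D3:**
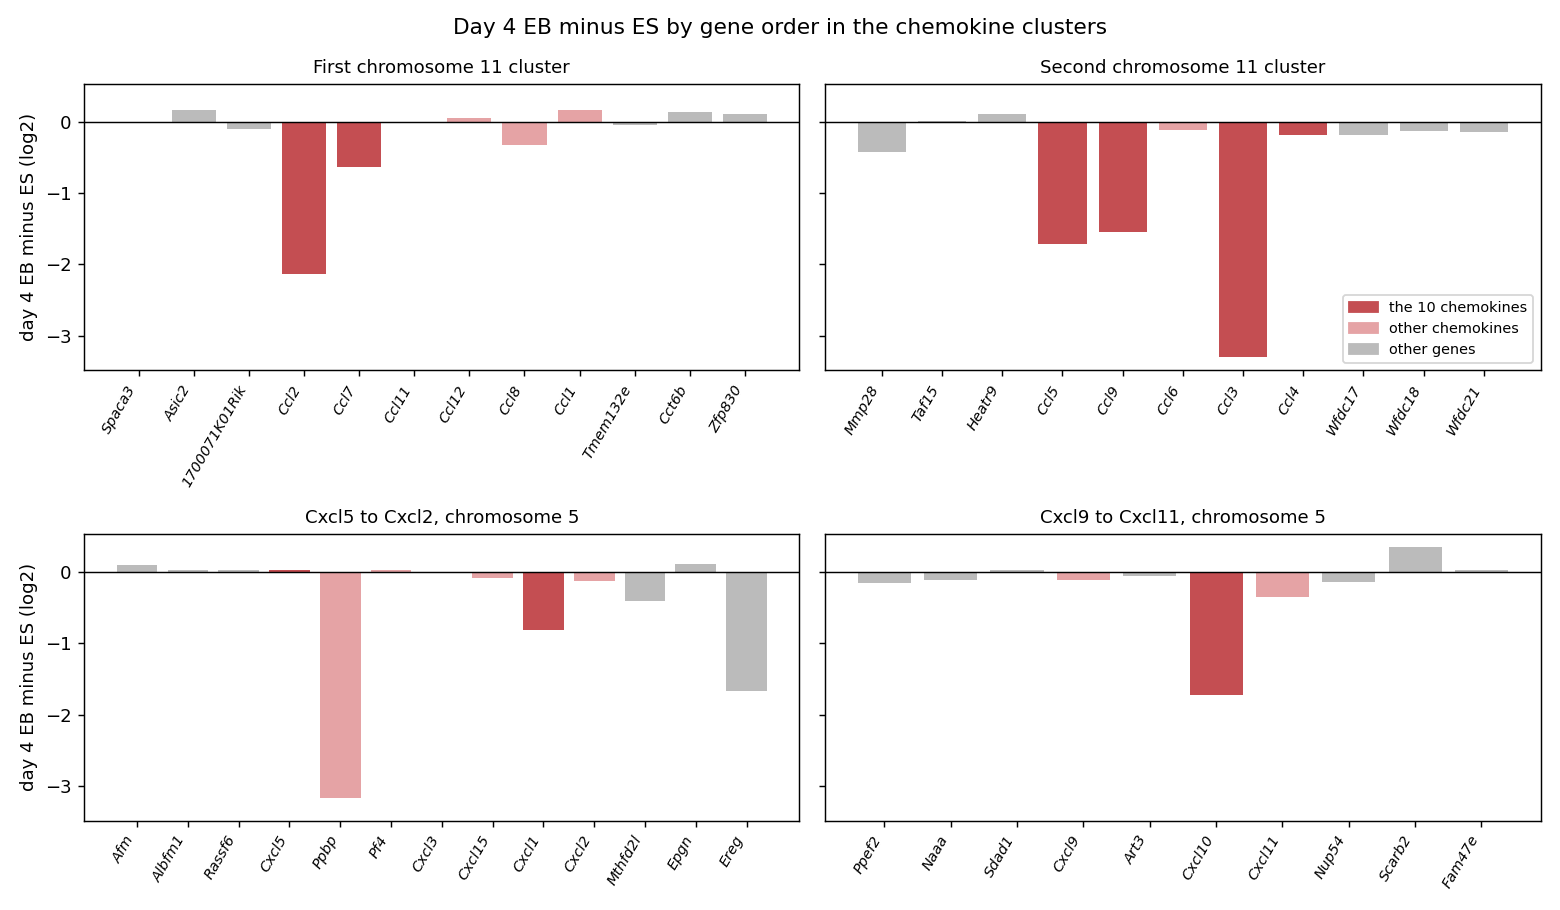
Log2 difference of day 4 EBs minus ES cells (y axis) for genes in chromosomal order (x axis, not to scale) in 4 chemokine clusters with 3 coding genes on each side. Dark bars are the 10 chemokines without Cxcl12, light bars other chemokines and grey bars other genes; bars of Ccl3 (-3.30), Ppbp (-3.16) and Ccl2 (-2.14) are the longest, and Ccl11, Ccl6, Pf4 and Cxcl3 lie between -0.11 and 0.03.

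Promoter windows from RefSeq, 250 bases before to 50 after the gene start on GRCm38.p6, were at hand for 5 of the 10 genes: Ccl3, Ccl9, Cxcl1, Cxcl10 and Cxcl12. They were searched on both strands for the kappa B core GGGNNTTTCC, the interferon response element core TTTCNNTTTC, the retinoic acid receptor hexamer AGGTCA, and the broader kappa B consensus by its name. The broader consensus was added after the sequences were seen, and it overlaps the core. The 250 upstream bases are shown for the 4 genes that were lower in day 4 EBs than in ES cells, 5′ to 3′ on the strand of the gene, with every match in capitals.
Ccl3 (chr11:83649379-83649628, minus strand): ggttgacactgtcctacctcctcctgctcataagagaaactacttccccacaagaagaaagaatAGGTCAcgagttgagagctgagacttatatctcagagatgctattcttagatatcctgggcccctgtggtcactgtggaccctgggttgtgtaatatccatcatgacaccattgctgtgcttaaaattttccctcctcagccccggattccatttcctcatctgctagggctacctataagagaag
Ccl9 (chr11:83578637-83578886, minus strand): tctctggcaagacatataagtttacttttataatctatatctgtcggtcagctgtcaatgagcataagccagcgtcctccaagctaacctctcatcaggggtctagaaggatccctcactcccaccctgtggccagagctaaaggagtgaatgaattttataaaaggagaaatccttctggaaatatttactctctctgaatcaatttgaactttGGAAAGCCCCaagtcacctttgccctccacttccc
Cxcl1 (chr5:90890995-90891244, plus strand): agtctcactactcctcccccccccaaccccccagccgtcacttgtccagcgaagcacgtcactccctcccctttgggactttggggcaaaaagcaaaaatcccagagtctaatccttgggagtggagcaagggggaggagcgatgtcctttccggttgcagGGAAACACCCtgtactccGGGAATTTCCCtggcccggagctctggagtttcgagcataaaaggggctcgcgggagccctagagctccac
Cxcl10 (chr5:92348890-92349139, minus strand): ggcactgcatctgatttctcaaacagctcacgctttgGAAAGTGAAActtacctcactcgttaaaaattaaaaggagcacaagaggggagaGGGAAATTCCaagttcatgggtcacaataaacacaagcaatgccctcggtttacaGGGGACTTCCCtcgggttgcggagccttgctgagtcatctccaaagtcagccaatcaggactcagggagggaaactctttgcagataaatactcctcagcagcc

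Cxcl1 held the kappa B core at bases -89 to -80 and -71 to -62 from the gene start, Ccl9 at -35 to -26, and 1.63% of all 32851 promoter windows held it. Cxcl10 held the interferon element core at -213 to -204, as did 3.44% of windows, and stretches of the broader kappa B consensus at -159 to -150 and -104 to -94. That consensus was present in 8.46% of windows, including those of Ccl9 and Cxcl1. The hexamer AGGTCA occurred in Ccl3, at -186 to -181, and in 16.3% of all windows. None of the motifs was found in the Cxcl12 window.

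The other members of the family were set beside the 10 genes. Of 30 further chemokines listed, 26 were analysed here, and in day 4 EBs against ES cells 5 were lower and 1 higher, with a median difference of -0.07, where 16.9% of all genes were lower and 17.8% higher. Beside Ppbp (-3.16 ± 0.11), Cx3cl1, a membrane-bound chemokine, was lower at 8.54 ± 0.02 in day 4 EBs and 9.76 ± 0.03 in ES cells (-1.22 ± 0.04). Cxcl16, which also exists as a membrane form, was higher (0.35 ± 0.06). With ATRA against DMSO, Ppbp was called higher (0.43 ± 0.11, limma adjusted p = 0.0187), although its means of 6.71 with ATRA and 6.29 with DMSO both lay inside the receptor-gene range, and Cxcl17 lower (-0.25 ± 0.06, adjusted p = 0.0162). Ppbp lost its call when ATRA 1, ATRA 3, DMSO 1 or DMSO 2 was left out, and Cxcl17 when ATRA 1, ATRA 3 or DMSO 1 was (adjusted p up to 0.0869 and 0.0827). All 4 group means of 16 of the 26, and of 2 of the 10, lay within the receptor-gene range.

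Of 23 chemokine receptors analysed, 1 was higher and 2 lower in day 4 EBs than in ES cells, where 17.8% of all genes were higher and 16.9% lower. With ATRA against DMSO 1 of them was higher and 0 lower, where 6.26% of all genes were higher and 7.05% lower. Cxcr4, the receptor of Cxcl12, was higher in day 4 EBs (7.65 ± 0.06) than in ES cells (7.32 ± 0.10), by 0.33 ± 0.06 (limma, adjusted p = 0.000867). Cxcr3, the receptor of Cxcl10, was higher with ATRA, at 7.85, 7.89 and 7.76, against 7.35, 7.33 and 7.33 with DMSO (0.50 ± 0.07, limma adjusted p = 0.000289). The receptors Ccr2 for Ccl2 and Ccl7, Ccr1 for Ccl3, Ccl5 and Ccl9, and Cxcr2 for Cxcl1 and Cxcl5 were looked up after the values were seen. Their group means lay between 4.73 and 5.00, inside the receptor-gene range, in all 4 groups.

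The signalling systems known to act on these genes were read from lists of their components and targets. Of 27 NF-kB genes, 17 were lower and 2 higher in day 4 EBs than in ES cells, with a median difference of -0.34. Vcam1, an adhesion molecule for leukocytes, was 5.94-fold lower (-2.57 ± 0.06), Csf1, the macrophage growth factor, 4.4-fold lower (-2.14 ± 0.08), the inhibitor gene Nfkbie 2.06-fold lower (-1.04 ± 0.04), and the RNA sensor Tlr3 lower (-1.28 ± 0.07), with its day 4 EB level of 6.78 inside the receptor-gene range. Of 24 interferon genes, 17 were lower and 2 higher, with a median of -0.43. Among them Usp18, a brake on interferon signalling, was 9.47-fold lower (-3.24 ± 0.11), Oasl2 6.27-fold (-2.65 ± 0.10), Oas2 4.39-fold (-2.13 ± 0.05) and Irgm1 3.02-fold (-1.60 ± 0.09). The lower calls include Il6, Ptx3 and Lcn2 among the NF-kB genes, and Mx1 and Rsad2 among the interferon genes. Their means in day 4 EBs and in ES cells all lay inside the receptor-gene range, so low signal limits these calls. In all genes tested the median difference was 0.00, with 16.9% lower and 17.8% higher.

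With ATRA against DMSO, 6.26% of all genes were called higher and 7.05% lower. Of the 27 NF-kB genes, 2 were higher and 0 lower (median -0.03), a count near that background: Vcam1 rose by 0.44 ± 0.06, opposite in sign to Ccl2 and Ccl7, and Icam1 was called at 0.19 ± 0.06 (limma, adjusted p = 0.0431). Icam1 lost its call without any 1 ATRA or day 4 EB array, DMSO 2, DMSO 3 or ES 3 (adjusted p 0.0521 to 0.153). Of the 24 interferon genes, 3 were higher and 4 lower (median 0.02). Ddx58 (RIG-I), a sensor of viral RNA, fell to 8.80, 8.87 and 8.78 under ATRA, against 10.03, 10.14 and 9.95 with DMSO (-1.22 ± 0.06, or 2.33-fold lower, limma adjusted p = 1.11e-07). Ifngr1, a chain of the interferon gamma receptor, rose by 0.62 ± 0.07, while Irgm1 fell by 0.73 on the log2 scale (SE 0.09), with 7.67, 7.97 and 7.69 under ATRA, against 8.50, 8.56 and 8.45 with DMSO. Oasl2 was called higher (0.40 ± 0.10, limma adjusted p = 0.0222) and lost its call without ATRA 1, ATRA 2, ATRA 3 or DMSO 2 (adjusted p 0.053 to 0.0921).

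Markers of cell types that could make chemokines were set beside these values. The summed linear signal of 16 fibroblast markers ran from 6592 to 6951 in the ATRA arrays, from 7664 to 7871 with DMSO, from 7567 to 8116 in day 4 EBs and from 18639 to 19332 in ES cells. As for Ccl2, ES cells were highest and the ATRA arrays lowest. In day 4 EBs against ES cells 13 of the 16 markers were lower and 0 higher (all genes, 16.9% lower and 17.8% higher), and with ATRA against DMSO 5 were lower and 1 higher (all genes, 7.05% lower and 6.26% higher). Lum and Fap lay within the receptor-gene range in all groups. Lower calls with ATRA against DMSO were not particular to this list. Of 14 pluripotency markers 6 were lower and 0 higher, and of 12 visceral endoderm markers 5 were lower and 1 higher. Of 10 endothelial markers 3 were lower and 2 higher, and of 17 leukocyte markers 1 was lower and 3 higher. The part of fibroblasts in the chemokine levels was not tested.

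For leukocytes, the summed signal of 17 markers lay between 8401 and 8697 with ATRA, 9000 and 9393 with DMSO, 9250 and 9642 in day 4 EBs, and 8212 and 8652 in ES cells. Laptm5 (log2 levels of 12.30 with ATRA, 12.50 with DMSO, 12.58 in day 4 EBs and 12.36 in ES cells) and Cd68 supplied most of this sum, which therefore says little of the other markers. Of the 17, 3 were higher and 1 lower in day 4 EBs than in ES cells. The one lower was Cd14, a monocyte receptor, with 6.30, 6.56 and 6.58 in day 4 EBs, inside the receptor-gene range, and 6.99, 7.26 and 7.15 in ES cells (-0.65 ± 0.09, limma adjusted p = 6.86e-05). Of the 17 markers, 7 were within the receptor-gene range in every group, among them Ptprc, Csf1r and Adgre1. Fcer1g, Cd3e and Coro1a, like Laptm5 and Cd68, lay above it in every group. The part of leukocytes in the chemokine levels was not tested. Visceral endoderm markers were higher in day 4 EBs (21779 to 24585) than in ES cells (9049 to 9201), with 12 of 12 called higher. Endothelial markers summed to 4103 to 4148 in day 4 EBs and 3459 to 3546 in ES cells, 3 of 10 higher and 1 lower. Over all genes 17.8% were higher and 16.9% lower in this comparison.

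**Figure D4:**
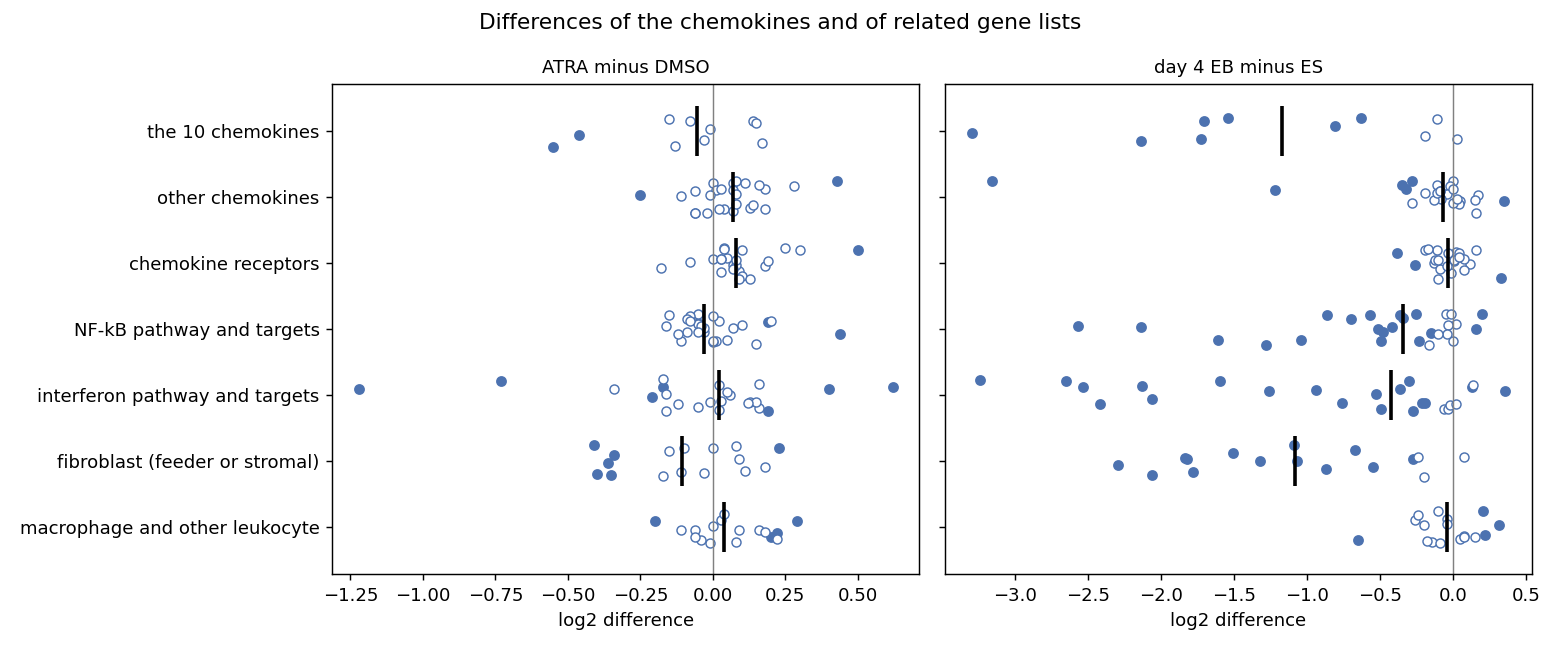
Log2 difference (x axis) of every analysed gene of 7 lists (rows) for ATRA minus DMSO and for day 4 EB minus ES, on separate x scales; vertical position within a row is random. Filled points were called at an adjusted p of 0.05 and black bars are list medians, which for day 4 EB minus ES are -1.17 for the 10 chemokines, -0.07 for other chemokines and -1.08 for fibroblast markers.

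Genes of like pattern were sought for the 6 chemokines whose group means spanned at least 1 log2 unit, by the root mean square difference over the 12 arrays after each gene was centred on its own mean. The search left out the chemokines described here, predicted genes, microRNAs, small RNAs, and olfactory and vomeronasal receptors. The nearest genes are therefore the nearest among those searched. For Ccl2 the nearest were Egr1 (0.09), Anxa3 (0.11) and S100a4 (0.12). Egr1, for example, stood at 8.0 ± 0.06 with ATRA, 8.52 ± 0.07 with DMSO, 8.74 ± 0.10 in day 4 EBs and 10.71 ± 0.01 in ES cells. For Ccl7 they were Klk10, Ripk3 and Msn (0.06 each), and for Ccl9 Osmr (0.08), Arhgdib and Cd44 (0.10 each). For Ccl5 they were Ly6g and Fos (0.11 each) and Nrp1 (0.12).

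Ccl3 was nearest to Usp17lb and Tmem92 (0.15 each) and Zfp352 (0.17), and Cxcl10 to Hs6st2 (0.12), Stox1 (0.13) and Gxylt2 (0.15). Zfp352 had 7.18 ± 0.09 with ATRA, 7.23 ± 0.11 with DMSO, 7.42 ± 0.17 in day 4 EBs and 10.35 ± 0.03 in ES cells. No gene among these 18 was named for more than 1 chemokine. The 12 arrays hold only 4 groups, so a like pattern rests mostly on the distance of ES cells from the rest.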

How the data were processed

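Per the labels' protocols, labelled cDNA was made from column-purified total RNA with the Ambion WT Expression kit. A single deposited table covers 35556 probe sets on 12 arrays. The authors deposited these as log2 values, judged so from their range (2.30 to 14.74); how they corrected background, normalized and summarized them is not stated in the labels or the table. Equalised arrays hide changes of total RNA per cell, and array number limits the precision.

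Of the probe sets, 21789 had 1 symbol in the platform annotation, 1621 several and 12146 were unlisted. The probe set with the highest mean stood for each gene (19938), with symbols checked in RefSeq GRCm38.p6 (21698 identifiers found, 0 changed). limma 3.58.1 in R 4.3.3 fitted 1 mean per group over 12 arrays (eBayes with 3.93 prior and 8 residual degrees of freedom; two-sided tests, Benjamini-Hochberg over all genes, threshold 0.05); its code was tested on simulated data. The labels call replicates biological without naming separate cultures, so p-values measure the spread between these samples. No arrays were copies (at most 0.0562% of values identical in a pair).

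The 10 genes, the gene lists and the alternatives were chosen with earlier results of these data known. Named are all 10 genes, up to 4 called genes per list and comparison by smallest adjusted p (not all printed), and 3 genes of nearest pattern. Flanking genes (the nearest 3 coding genes on each side) and partner receptors fall outside this rule and were named after their values were seen. A few listed genes are not analysed here.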

Additional observations from a re-analysis of the deposited data

How the results depend on the processing

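The number of the 10 chemokines called was recomputed under each alternative: each array left out in turn, EB 2 and ES 2 left out together, a 1.5-fold limit, a threshold of 0.01, a filter on low values, median centring, quantile normalization, array weights, a fit of only the arrays compared, a robust prior with intensity trend, probe sets averaged per gene or kept apart, and the replicate block. None of the 10 changed sign while called. With the filter, which keeps genes with a mean above 8.35, Ccl2 and Ccl7 remained in the test, and 2 were called lower in day 4 EBs against ES cells in place of 7, and 2 in ATRA against ES cells in place of 8. With the 1.5-fold limit, 0 were called in ATRA against DMSO in place of 2, and 7 in ATRA against ES cells in place of 8, Cxcl12 losing its call. With single arrays left out, the number called was 2 to 2 for ATRA against DMSO, 0 to 0 for DMSO against day 4 EBs, 7 to 8 for day 4 EBs against ES cells and 8 to 8 for ATRA against ES cells.

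With the replicate number as a block, the counts were 2, 0, 7 and 8, so the block changed no count. Same-numbered arrays correlated above 0.1 in 3 of 18 pairs of deviations from the group means (range -0.05 to 0.41), and 6 of 12 arrays correlated best with their own number, so the numbers are not taken to pair the samples. The scalings moved the median of all genes by at most 0.043. Among other named genes, calls ended in 40 of 236 gene and setting pairs for ATRA against DMSO. Low signal limits Ccl4, Cxcl5 and the EB levels of Ccl3 and Cxcl10.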
